A study of Mus musculus with 6 samples.

Results

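Genes that mark endothelial cells, the lining of blood and lymph vessels, were followed in the epididymal fat (eWAT, a white visceral depot) of obese mice. The set was chosen by gene symbol and holds 39 genes, of 19938 genes that could be read on the array. Of these, 34 are markers of blood vessel endothelium and are called vascular below, and 5 are markers of lymphatic endothelium and are described apart. Each gene was read by the probe set that carries its symbol alone and was brightest over all arrays, which left 1 probe set per member.

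Male C57BL6/J mice were 6 weeks old when high-fat feeding began, and it lasted 12 weeks. Both groups carried an injected recombinant adeno-associated virus (rAAV) of the hybrid serotype Rec2 in both eWAT pads. The rAAV-Lmo3 group received the LIM-domain cofactor Lmo3 and the rAAV-YFP control group a yellow fluorescent protein. The treatment label of the same samples calls the control vector rAAV-LacZ, and the name in the sample titles is used here. The vector drove its transgene from a CMV enhancer and chicken β-actin promoter, which is not restricted to a cell type. The paper reports strong Lmo3 expression by qPCR in eWAT of the rAAV-Lmo3 group. By confocal imaging it reports LMO3 protein in the mature adipocytes of this tissue. Each group held 3 arrays, every one of them a pool of RNA of 2 mice.

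All values are intensities on the log2 scale, where a difference of 1 is a doubling, and every difference is rAAV-Lmo3 minus rAAV-YFP. Median intensities of the 6 arrays lay between 123 and 127.5. The arrays rAAV-Lmo3 1 and rAAV-YFP 2 stood apart, correlating on average at 0.986 and 0.988 with the rest, compared with 0.990 to 0.991 for the other 4. The probe set of Lmo3 read intensities of 24, 26 and 24 on the rAAV-Lmo3 arrays and 25, 24 and 24 on the rAAV-YFP arrays, below the limit of 114 used for dim genes, so it gave no check of the labels.

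Endothelial cells are held together by VE-cadherin (Cdh5) and PECAM-1 (Pecam1), and they sense vascular endothelial growth factors through Kdr and Flt1 and angiopoietins through Tek. ETS factors such as Erg and Fli1 and SoxF factors such as Sox17 and Sox18 maintain their identity, and Notch signalling through Dll4 and Notch4 separates arterial from venous vessels. In white fat, capillaries deliver fatty acids and oxygen to adipocytes, and they have to grow when the depot expands.

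Vascular genes lay mostly on the lower side in rAAV-Lmo3 eWAT. Their median difference stayed below 0 without any single array, but was 0.04 without both arrays that stood apart. Of the 34 vascular members 33 were bright enough to be tested. Of these 25 lay below 0 and 8 above, with a median log2 difference of -0.18, against 0.00 over all 11963 genes tested, of which 49.7% lay below 0. The single differences ran from -0.46 for the guidance receptor Robo4 to 0.25 for the endothelial nitric oxide synthase Nos3. With limma, 0 members reached an adjusted p under 0.05, as did 0 of all genes (smallest adjusted p = 0.669). At an unadjusted p under 0.05, 5 vascular members were lower, or 15.2%, against 2.40% of all genes, and 0 were higher, against 2.27%. The 5 were Robo4, Aqp1, Notch4, Ptprb and Esam. In the methods' t-test 0 members passed at that level. The groups did not overlap for 3 vascular members, or 9.09%, all of them lower, against 5.95% of all genes, and 0 were higher without overlap, against 4.53%. Since the arrays hold whole tissue, fewer endothelial cells and less RNA of these genes per cell cannot be told apart.

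**Figure D1:**
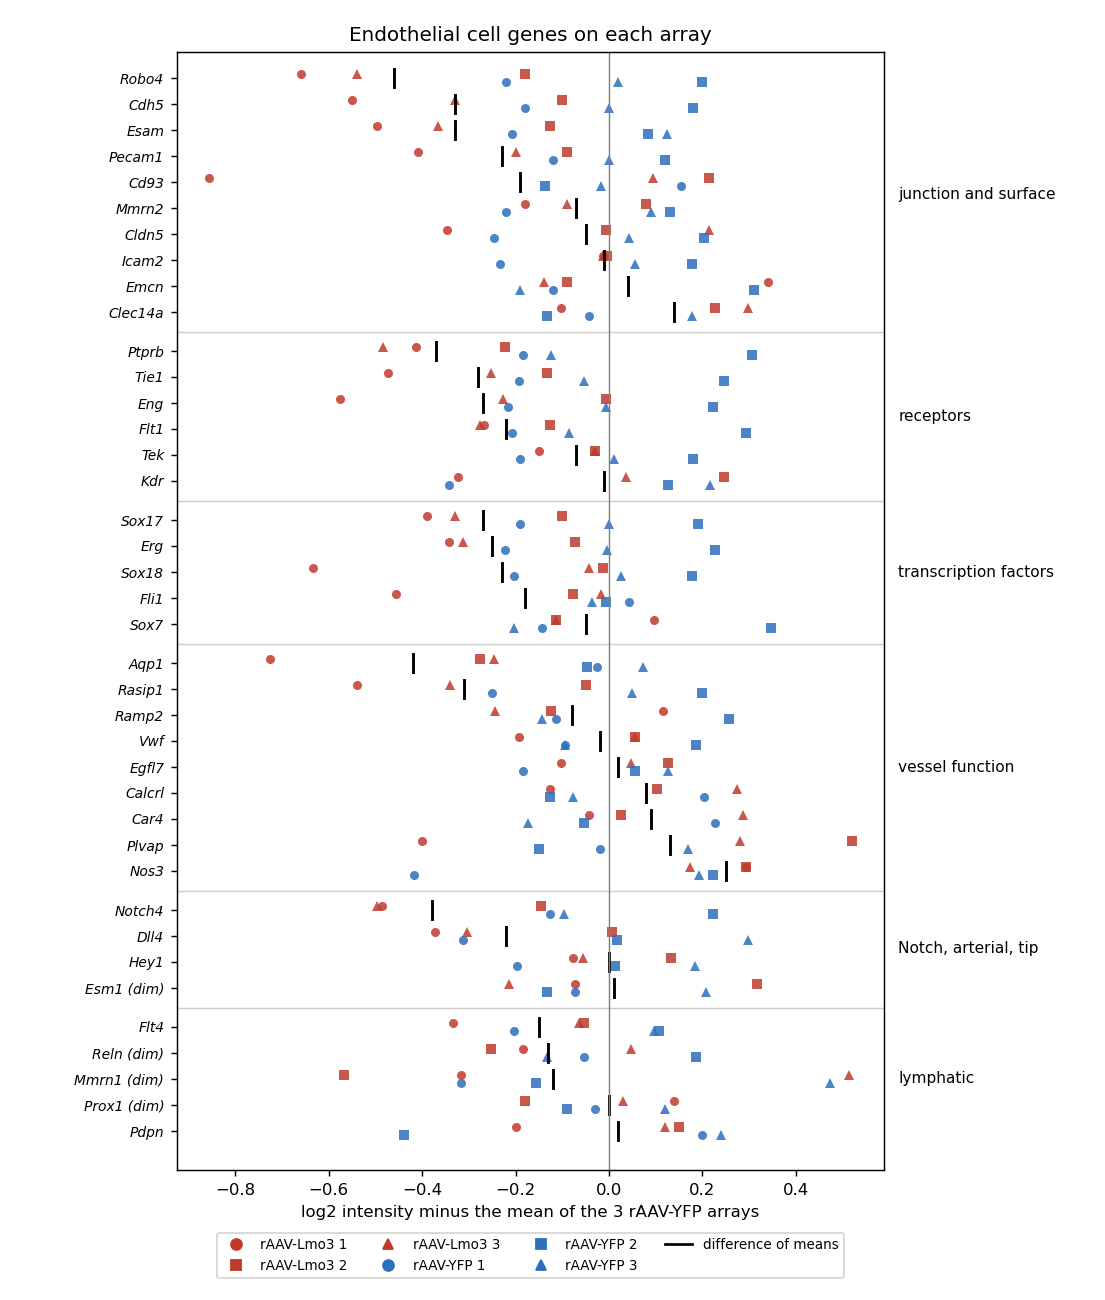
Log2 intensity of the 39 endothelial genes on each array, with the average of the 3 controls set to 0 (log2 units on the horizontal axis, genes down the page; red, rAAV-Lmo3; blue, rAAV-YFP; symbols, replicate; black bar, difference of the group means; "dim", not tested). The differences run from -0.46 for Robo4 to 0.25 for Nos3, and rAAV-Lmo3 1 (red circle) is the lowest and rAAV-YFP 2 (blue square) the highest array for many vascular genes.

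Among the proteins of the junctions and the cell surface, 8 of 10 lay below 0, with a median of -0.13 and 2 lower at the unadjusted level. Robo4, a receptor that stabilises vessels, read 9.03, 9.51 and 9.15 on the rAAV-Lmo3 arrays, against 9.47, 9.89 and 9.71 on the rAAV-YFP arrays. The means were 9.23 ± 0.25 and 9.69 ± 0.21 (SD, n = 3 pools each), a difference of -0.46 ± 0.16 (SE) or 1.38-fold lower (adjusted p = 0.97 in limma, as for all 5 genes). The groups touched only where rAAV-Lmo3 2 lay just above rAAV-YFP 1. Esam, an adhesion molecule of endothelial tight junctions, read 9.09, 9.46 and 9.22 in rAAV-Lmo3 tissue and 9.38, 9.67 and 9.71 in rAAV-YFP tissue, a difference of -0.33 ± 0.13.

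The defining junction genes lay below 0 without passing the unadjusted level. Cdh5 read 11.41, 11.86 and 11.63 on the rAAV-Lmo3 arrays, against 11.78, 12.14 and 11.96 on the rAAV-YFP arrays, a difference of -0.33 ± 0.14. Pecam1, which leukocytes and platelets also carry, read 10.59, 10.91 and 10.80 in rAAV-Lmo3 tissue and 10.88, 11.12 and 11.00 in rAAV-YFP tissue, a difference of -0.23 ± 0.11. Both genes had their lowest value on rAAV-Lmo3 1 and their highest on rAAV-YFP 2. Other members of this group lay near 0 with overlapping groups. The tight junction protein gene Cldn5 differed by -0.05 ± 0.18, the leukocyte ligand Icam2 by -0.01 ± 0.11, the capillary and venous sialomucin Emcn by 0.04 ± 0.18 and the matrix glycoprotein Mmrn2 by -0.07 ± 0.12. Its binding partner Clec14a differed by 0.14 ± 0.14, with means of 6.91 in rAAV-Lmo3 tissue and 6.78 in rAAV-YFP tissue, and passed the dim limit of 6.83 only through the rAAV-Lmo3 arrays. Cd93, another partner of Mmrn2 that myeloid cells also express, read 9.87, 10.94 and 10.82 in rAAV-Lmo3 tissue and 10.88, 10.59 and 10.71 in rAAV-YFP tissue. Its difference of -0.19 ± 0.28 came from rAAV-Lmo3 1 and was 0.15 without that array.

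All 6 growth factor receptors and their partners lay below 0, with a median of -0.24, and 1 was lower at the unadjusted level. Ptprb, the phosphatase VE-PTP that acts on the angiopoietin receptor and on VE-cadherin, read 10.50, 10.69 and 10.43 on the rAAV-Lmo3 arrays, against 10.73, 11.22 and 10.79 on the rAAV-YFP arrays. The groups did not overlap, and the difference was -0.37 ± 0.15, or -0.22 without rAAV-YFP 2. Tie1, the orphan partner of the angiopoietin receptor, read 8.85, 9.19 and 9.07 in rAAV-Lmo3 tissue and 9.13, 9.57 and 9.27 in rAAV-YFP tissue, a difference of -0.28 ± 0.14.

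The decoy receptor Flt1 read 9.59, 9.73 and 9.58 on the rAAV-Lmo3 arrays, against 9.65, 10.15 and 9.77 on the rAAV-YFP arrays, a difference of -0.22 ± 0.14. Eng, a co-receptor for TGF-β and BMP ligands, read 10.41, 10.98 and 10.76 in rAAV-Lmo3 tissue and 10.77, 11.21 and 10.98 in rAAV-YFP tissue, a difference of -0.27 ± 0.17. In both genes the control array rAAV-YFP 2 was the highest of all. The principal signalling receptors differed by less than their errors, Kdr by -0.01 ± 0.20 and Tek by -0.07 ± 0.11.

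All 5 transcription factors lay below 0 as well, with a median of -0.23, and 0 passed at the unadjusted level. Sox17, an arterial SoxF factor, read 8.04, 8.33 and 8.10 on the rAAV-Lmo3 arrays, against 8.24, 8.62 and 8.43 on the rAAV-YFP arrays, a difference of -0.27 ± 0.13. Erg read 8.88, 9.15 and 8.91 in rAAV-Lmo3 tissue and 9.00, 9.45 and 9.22 in rAAV-YFP tissue, a difference of -0.25 ± 0.14. The ranges of both genes overlapped. Fli1, which leukocytes and megakaryocytes share, read 9.72, 10.10 and 10.16 in rAAV-Lmo3 tissue, against 10.22, 10.17 and 10.14 in rAAV-YFP tissue (-0.18 ± 0.13). Sox18 read 8.70, 9.32 and 9.29 in rAAV-Lmo3 tissue and 9.13, 9.51 and 9.36 in rAAV-YFP tissue (-0.23 ± 0.19). Without rAAV-Lmo3 1 Fli1 differed by -0.05 and Sox18 by -0.03, so both differences rested largely on that array. Sox7 differed by -0.05 ± 0.16.

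Genes of vessel function were divided. Of 9 genes 5 lay above 0 and 4 below, with a median of 0.02. Aqp1, the water channel of continuous capillaries, read 10.16, 10.61 and 10.64 on the rAAV-Lmo3 arrays, against 10.86, 10.84 and 10.96 on the rAAV-YFP arrays. The means were 10.47 ± 0.27 and 10.89 ± 0.07 (SD, n = 3 pools each), a difference of -0.42 ± 0.14. The groups did not overlap, and all 3 rAAV-Lmo3 arrays lay below the control range, rAAV-Lmo3 1 the farthest, without which the difference was -0.26. Red blood cells and mesothelium also hold Aqp1, and values of these cell types are given further on.

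Rasip1, a Ras-interacting protein needed for the vessel lumen, read 8.32, 8.81 and 8.52 in rAAV-Lmo3 tissue and 8.61, 9.06 and 8.91 in rAAV-YFP tissue (-0.31 ± 0.16). Nos3 read 8.84, 8.84 and 8.72 on the rAAV-Lmo3 arrays, against 8.13, 8.77 and 8.74 on the rAAV-YFP arrays. Its difference of 0.25 ± 0.18 came from the low value on rAAV-YFP 1, and without that array it was 0.05. The membrane-bound carbonic anhydrase Car4 read 9.52, 9.59 and 9.85 in rAAV-Lmo3 tissue and 9.79, 9.51 and 9.39 in rAAV-YFP tissue (0.09 ± 0.14). The others overlapped widely. They were the clotting factor carrier Vwf (-0.02 ± 0.12), the fenestral diaphragm protein Plvap (0.13 ± 0.23), the adrenomedullin receptor parts Calcrl (0.08 ± 0.14) and Ramp2 (-0.08 ± 0.15), and the secreted factor Egfl7 (0.02 ± 0.11).

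Of the Notch, arterial and tip cell genes, 3 of 4 were tested. Notch4, the Notch receptor largely restricted to endothelium, read 8.18, 8.52 and 8.17 on the rAAV-Lmo3 arrays, against 8.54, 8.89 and 8.57 on the rAAV-YFP arrays, without overlap. The difference was -0.38 ± 0.14, or 1.30-fold lower. Its ligand Dll4 read 8.39, 8.77 and 8.46 in rAAV-Lmo3 tissue and 8.45, 8.78 and 9.06 in rAAV-YFP tissue (-0.22 ± 0.18). Without rAAV-YFP 3 Dll4 differed by -0.07, and without rAAV-YFP 1 by -0.38. The Notch target Hey1 read 7.98, 8.19 and 8.00 on the rAAV-Lmo3 arrays and 7.86, 8.07 and 8.24 on the rAAV-YFP arrays, a difference of 0.00 ± 0.12. Esm1, a tip cell proteoglycan, was too dim to test and differed by 0.01 ± 0.16.

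The promoters of Robo4, Notch4 and Aqp1 are shown because these are the lower members for which the RefSeq promoter table (GRCm38.p6) held a sequence, Esam and Ptprb being named only. The table matched 23 of the 39 members, with 28 start sites. Each window runs from 250 bases before to 50 after a start site, 5′ to 3′ on the gene's strand, and capitals mark AGGAAG or its reverse complement CTTCCT, a core of the sites bound by ETS factors. The windows are chr9:37401722-37402021 for Robo4, chr17:34564045-34564344 for Notch4 and chr6:55336049-55336348 for Aqp1, all on the plus strand.
Robo4: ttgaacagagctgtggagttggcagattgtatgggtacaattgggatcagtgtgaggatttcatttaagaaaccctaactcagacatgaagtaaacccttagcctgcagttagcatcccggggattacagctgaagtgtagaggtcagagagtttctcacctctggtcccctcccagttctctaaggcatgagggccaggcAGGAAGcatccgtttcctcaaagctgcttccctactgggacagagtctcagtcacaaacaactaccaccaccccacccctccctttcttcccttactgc
Notch4: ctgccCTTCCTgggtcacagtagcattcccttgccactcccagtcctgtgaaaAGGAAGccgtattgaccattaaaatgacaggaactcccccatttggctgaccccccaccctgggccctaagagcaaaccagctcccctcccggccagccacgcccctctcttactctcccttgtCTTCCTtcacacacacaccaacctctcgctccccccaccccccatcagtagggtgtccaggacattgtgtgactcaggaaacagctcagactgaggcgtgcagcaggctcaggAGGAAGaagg
Aqp1: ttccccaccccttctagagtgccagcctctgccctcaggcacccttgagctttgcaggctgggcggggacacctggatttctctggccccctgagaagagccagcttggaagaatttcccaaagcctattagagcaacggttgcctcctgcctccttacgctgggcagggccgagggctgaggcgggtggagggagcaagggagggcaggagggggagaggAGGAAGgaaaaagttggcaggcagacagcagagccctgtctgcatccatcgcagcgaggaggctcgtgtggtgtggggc

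The match begins 49 bases before the start in Robo4 and 29 bases before it in Aqp1, and Notch4 holds 4 matches. Over all members, 12 of 28 windows held AGGAAG on either strand, or 42.9%, against 35.4% of all 32851 windows of this length. For the SoxF-type core ACAATG or ACAAAG the shares were 32.1% and 28.6%, and for GTGGGAA, a core bound by the Notch effector RBPJ, 7.14% and 6.38%. A match is a description of the letters in these windows, and the shares of the members lay close to those of all promoters.

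The spread of the vascular genes over the arrays was uneven in the same way for most of them. Array rAAV-Lmo3 1 was the lowest of all 6 arrays for 18 of 33 tested vascular members, or 54.5%, against 23.3% of all genes tested. Array rAAV-YFP 2 was the highest for 18 of 33 as well, against 21.2% of all genes. For 10 members, or 30.3%, both held at once, against 4.91% of all genes. In 22 of 33 vascular members, or 66.7%, rAAV-Lmo3 1 lay below the other rAAV-Lmo3 arrays while rAAV-YFP 2 lay above the other rAAV-YFP arrays, against 14.1% of all genes. Over all 11963 genes the deviations of these arrays from their groups ran together instead (Pearson's r = 0.68 across genes, which are not independent). The median deviation of the vascular members was -0.25 on rAAV-Lmo3 1 and 0.27 on rAAV-YFP 2. Centred per gene and averaged over these members, replicate 1 was the lowest array and replicate 2 the highest in both groups. The averages of replicates 1 and 2 were -0.23 and 0.07 for rAAV-Lmo3, and -0.08 and 0.20 for rAAV-YFP.

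**Figure D2:**
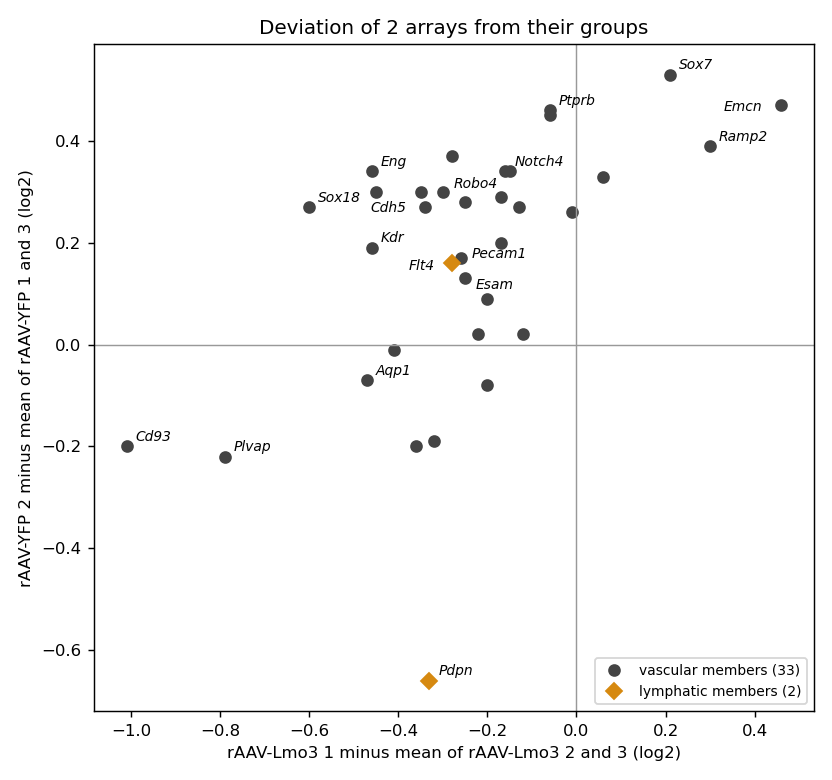
Deviation of array rAAV-Lmo3 1 from the mean of the other rAAV-Lmo3 arrays (horizontal axis, log2 units) against the deviation of rAAV-YFP 2 from the mean of the other rAAV-YFP arrays (vertical axis, log2 units) for the 33 vascular and 2 lymphatic genes tested. In the upper left quadrant lie 22 of the vascular genes. Emcn, Sox7, Ramp2 and Nos3 lie above 0 on both axes, and Cd93, Plvap, Aqp1, Fli1, Clec14a, Calcrl and Car4 below 0 on both.

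Not every vascular gene took part. Emcn read 10.29 on rAAV-Lmo3 1, above the other rAAV-Lmo3 arrays at 9.86 and 9.81, and 10.26 on rAAV-YFP 2, above the other controls at 9.83 and 9.76. Ramp2 and Sox7 were likewise high on both arrays. Plvap was low on both, with 8.87 on rAAV-Lmo3 1 beside 9.79 and 9.55 in its group, and 9.12 on rAAV-YFP 2 beside 9.25 and 9.44. Aqp1 also lay outside the pattern, with deviations of -0.47 on rAAV-Lmo3 1 and -0.07 on rAAV-YFP 2.

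Without the pair of arrays that stood apart, the median difference of the 33 vascular members was 0.04, and 16 of 33 lay below 0. These were also the lowest rAAV-Lmo3 and the highest rAAV-YFP array for the vascular members on average. Leaving both out therefore had to raise the mean difference of this set, and the source of the shift was not tested by it. Of the 5 members lower at the unadjusted level with all arrays, only Aqp1 was still lower at that level (-0.28), against 1.84% of all genes lower at that level. Robo4 differed by -0.26, Notch4 by -0.21, Ptprb by -0.20 and Esam by -0.20, so all 5 stayed below 0 in this limma fit of the other 4 arrays. Plvap was higher at the unadjusted level (0.32), against 2.36% of all genes higher at that level. The defining genes came closer to 0, with Cdh5 at -0.13 and Pecam1 at -0.09. By role the medians were 0.05 for junction and surface genes, -0.03 for receptors, -0.05 for transcription factors, 0.13 for vessel function and -0.14 for the Notch group. Leaving out rAAV-Lmo3 1 alone gave a median of -0.12 with 22 of 33 below 0 and 1 lower at the unadjusted level, and leaving out rAAV-YFP 2 alone gave -0.07 with 17 of 33 and 1. Over all 11963 genes 276 were lower without rAAV-Lmo3 1 and 141 without rAAV-YFP 2. The count of lower members was also 1 without rAAV-Lmo3 3 (140 of all genes) or without rAAV-YFP 3 (280 of all genes). It was 9 without rAAV-Lmo3 2 (245 of all genes) and 10 without rAAV-YFP 1 (339 of all genes).

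**Figure D3:**
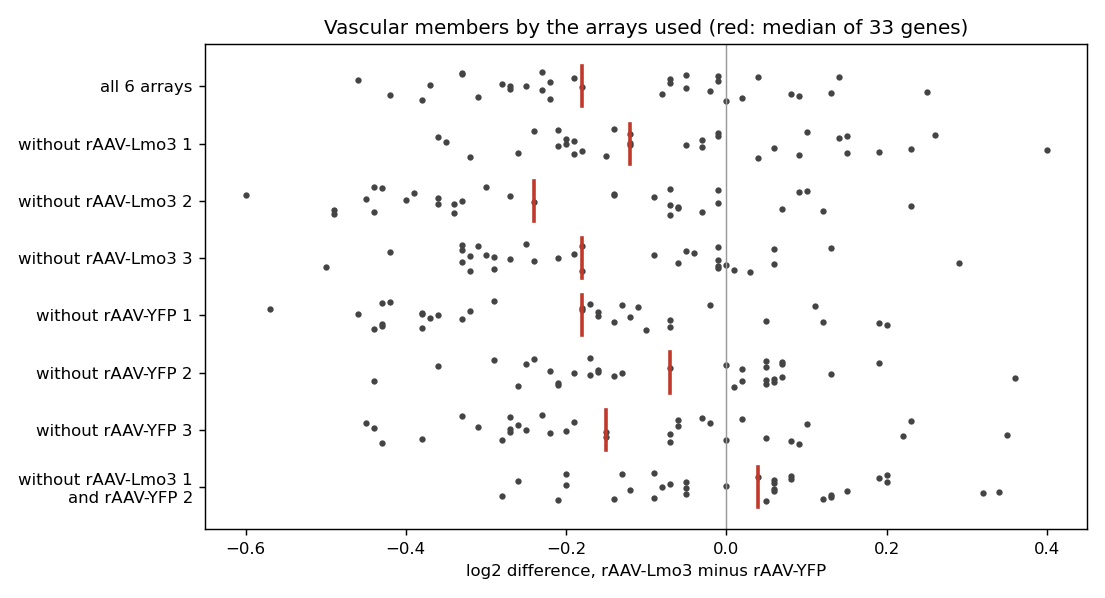
Log2 difference, rAAV-Lmo3 minus rAAV-YFP, of the 33 vascular genes tested (horizontal axis, 1 point per gene; red bar, median) with all 6 arrays, without each array in turn and without both arrays that stood apart. The median is -0.18 with all arrays, between -0.24 and -0.07 without any single array, and 0.04 without both.

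Other blood endothelial genes outside the set also lay more often below 0 than above. Of 38 listed genes 34 were tested, 23 lay below 0 and 11 above, with a median of -0.07, or 0.00 without both arrays. At the unadjusted level 1 was lower, or 2.94%, against 2.40% of all genes, 0 were higher, and 0 passed after adjustment. The groups did not overlap for 6 lower genes, or 17.6%, against 5.95% of all genes, and for 1 higher gene, against 4.53% of all genes. The gene lower at the unadjusted level was S1pr1, the sphingosine-1-phosphate receptor that strengthens the endothelial barrier. It read 10.19, 10.18 and 10.19 on the rAAV-Lmo3 arrays, against 10.27, 10.79 and 10.57 on the rAAV-YFP arrays (-0.36 ± 0.13). The capillary adhesion G protein-coupled receptor Adgrf5 (-0.28 ± 0.12) and the arterial semaphorin Sema3g (-0.26 ± 0.12) did not pass. Without rAAV-YFP 2 S1pr1 differed by -0.23, Adgrf5 by -0.16 and Sema3g by -0.20. Without both arrays S1pr1 differed by -0.23, Adgrf5 by -0.20 and Sema3g by -0.13.

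Among 21 tested ligands, co-receptors and receptors of vessel growth, 17 lay below 0, with a median of -0.14, or -0.06 without both arrays. At the unadjusted level 3 were lower, or 14.3%, against 2.40% of all genes, 1 was higher, against 2.27% of all genes, and 0 passed after adjustment. Without both arrays 2 were lower, against 1.84% of all genes, and 1 was higher, against 2.36% of all genes. In that setting 11 of 21 lay below 0, against 52.2% of all genes. Angpt1, the ligand that activates Tek, read 7.56, 7.23 and 7.61 on the rAAV-Lmo3 arrays, against 7.14, 6.51 and 6.73 on the rAAV-YFP arrays (0.67 ± 0.18, adjusted p = 0.97 in limma). Its groups did not overlap, and without both arrays it differed by 0.48, but the rAAV-YFP mean of 6.79 lay under the dim limit of 6.83, so that Angpt1 was tested only through the higher rAAV-Lmo3 mean of 7.47. Notch1, a Notch receptor of endothelium and other cells, read 8.96, 9.21 and 8.89 in rAAV-Lmo3 tissue and 9.30, 9.69 and 9.44 in rAAV-YFP tissue (-0.46 ± 0.13). It differed by -0.35 without rAAV-YFP 2 and by -0.32 without both arrays. Slit3, a secreted guidance ligand of the Robo family, differed by -0.43 ± 0.15, by -0.27 without rAAV-YFP 2 and by -0.34 without both arrays. Fgf2 also lay lower at the unadjusted level, by -0.62 ± 0.25, with a difference of -0.33 without rAAV-YFP 2 and -0.42 without both arrays. The principal vascular endothelial growth factor Vegfa differed by 0.14 ± 0.19 and the lymphatic growth factor Vegfc by -0.03 ± 0.17.

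Lymphatic markers were mostly dim. Of the 5 members 2 were tested, and the median difference of these was -0.07 with 0 past the unadjusted level. Prox1, the transcription factor that defines lymphatic endothelium, read 5.75, 5.43 and 5.64 on the rAAV-Lmo3 arrays and 5.58, 5.52 and 5.73 on the rAAV-YFP arrays, all below the limit of 6.83. The levels of the groups overlapped fully. Flt4, the receptor for Vegfc, which some blood capillaries share, read 7.36, 7.64 and 7.63 in rAAV-Lmo3 tissue and 7.49, 7.80 and 7.79 in rAAV-YFP tissue (-0.15 ± 0.13). It had its lowest value on rAAV-Lmo3 1 and its highest on rAAV-YFP 2, as many vascular genes did.

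Pdpn, the membrane glycoprotein podoplanin, read 9.01, 9.36 and 9.33 on the rAAV-Lmo3 arrays and 9.41, 8.77 and 9.45 on the rAAV-YFP arrays (0.02 ± 0.20). It was low on both arrays that stood apart, unlike Flt4. Fibroblasts, mesothelium and some macrophages carry podoplanin too, and with Prox1 below the limit its probe set cannot be assigned to lymphatic vessels here. Reln, an extracellular glycoprotein that lymphatic vessels secrete, read 6.70, 6.63 and 6.93 in rAAV-Lmo3 tissue and 6.83, 7.07 and 6.75 in rAAV-YFP tissue (-0.13 ± 0.12). Mmrn1, a multimerin shared with platelets, read 5.95, 5.70 and 6.78 in rAAV-Lmo3 tissue and 5.95, 6.11 and 6.74 in rAAV-YFP tissue (-0.12 ± 0.32). Both were too dim to test, and their groups overlapped.

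Of 6 tested further lymphatic genes 5 lay below 0, with a median of -0.11 and 0 past the unadjusted level. The median was 0.00 without rAAV-Lmo3 1 (3 of 6 below 0) and -0.07 without rAAV-YFP 2 (5 of 6). Without both arrays it was -0.02 (3 of 6). Nr2f2, a venous and lymphatic nuclear receptor, differed by -0.25 ± 0.18, or by -0.05 without rAAV-YFP 2, and the semaphorin co-receptor Nrp2 by -0.12 ± 0.15. Lyve1, a hyaluronan receptor of lymphatic vessels and of resident macrophages, read 9.92, 8.48 and 8.86 on the rAAV-Lmo3 arrays and 9.42, 9.35 and 9.01 on the rAAV-YFP arrays (-0.17 ± 0.35). On rAAV-Lmo3 1 Lyve1 had its highest value, where Flt4 had its lowest.

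Markers of some other cell types also moved on the arrays that stood apart, while mesothelial and lymphocyte levels were highest on rAAV-YFP 3. The level of a list is given as the mean over its tested genes of the log2 intensity centred per gene. The vascular members had levels of -0.23, 0.07 and -0.04 on the rAAV-Lmo3 arrays and -0.08, 0.20 and 0.08 on the rAAV-YFP arrays, with overlap. All 18 macrophage genes were tested, with levels of -0.40, 0.24 and 0.47 in rAAV-Lmo3 tissue and 0.44, -0.76 and 0.00 in rAAV-YFP tissue. Of their differences 17 lay above 0, with a median of 0.16, and 0 passed the unadjusted level. The macrophage median was 0.47 without rAAV-Lmo3 1, -0.11 without rAAV-YFP 2 and 0.11 without both. Both arrays that stood apart were thus low in macrophage genes, whereas the vascular level was lowest on rAAV-Lmo3 1 and highest on rAAV-YFP 2.

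Mural cell genes, which mark pericytes and smooth muscle around vessels, had levels of -0.38, 0.14 and 0.09 on the rAAV-Lmo3 arrays and -0.06, 0.03 and 0.19 on the rAAV-YFP arrays, and 10 of 12 were lowest on rAAV-Lmo3 1. As with the vascular members, most lay below 0 (9 of 12), with a median of -0.11 and 0 past the unadjusted level. Without both arrays that stood apart 5 of 12 lay below 0, with a median of 0.02. Fibroblast and progenitor genes stood at -0.24, 0.11 and 0.24 in rAAV-Lmo3 tissue and 0.15, -0.32 and 0.05 in rAAV-YFP tissue. Low mural and fibroblast levels thus accompanied the low vascular level on rAAV-Lmo3 1, while on rAAV-YFP 2 the fibroblast level was low and the vascular level high. Adipocyte genes were at 0.15, -0.06 and -0.17 in rAAV-Lmo3 tissue and -0.11, 0.18 and 0.02 in rAAV-YFP tissue.

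Mesothelial genes, from the lining of the fat pad, were at -0.27, -0.24 and 0.08 on the rAAV-Lmo3 arrays. On the rAAV-YFP arrays they were at -0.19, -0.06 and 0.68. All 10 tested lay below 0, with 0 past the unadjusted level, but not without rAAV-YFP 3. In that setting Lrrn4 differed by 0.18, Aldh1a2 by 0.16, Upk3b by 0.14, Krt7 by 0.05 and Gpm6a by 0.04. The others were Cldn15 at -0.3, Krt8 at -0.17, Upk1b at -0.15, Msln at -0.09 and Wt1 at -0.08. With all arrays Gpm6a was tested only through the higher rAAV-YFP mean of 7.3, as its rAAV-Lmo3 mean of 6.81 lay under the dim limit. The red cell gene Alas2 read 8.81, 7.55 and 8.20 in rAAV-Lmo3 tissue and 8.14, 8.68 and 7.84 in rAAV-YFP tissue, with its highest value on rAAV-Lmo3 1 and its lowest on rAAV-Lmo3 2. The platelet gene Pf4 read 9.23, 8.95 and 9.49 in rAAV-Lmo3 tissue and 9.32, 8.95 and 8.87 in rAAV-YFP tissue. Unlike Pf4, the dimmer platelet genes Itga2b (7.20) and Gp9 (7.09) had their highest values on rAAV-YFP 2. The 2 tested lymphocyte genes had levels of -0.30, 0.02 and -0.06 in rAAV-Lmo3 tissue and -0.03, -0.10 and 0.47 in rAAV-YFP tissue, and the T cell gene Cd3e was lower at the unadjusted level (-0.42 ± 0.17). The part of these cell types in the values of the endothelial genes was not tested.

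**Figure D4:**
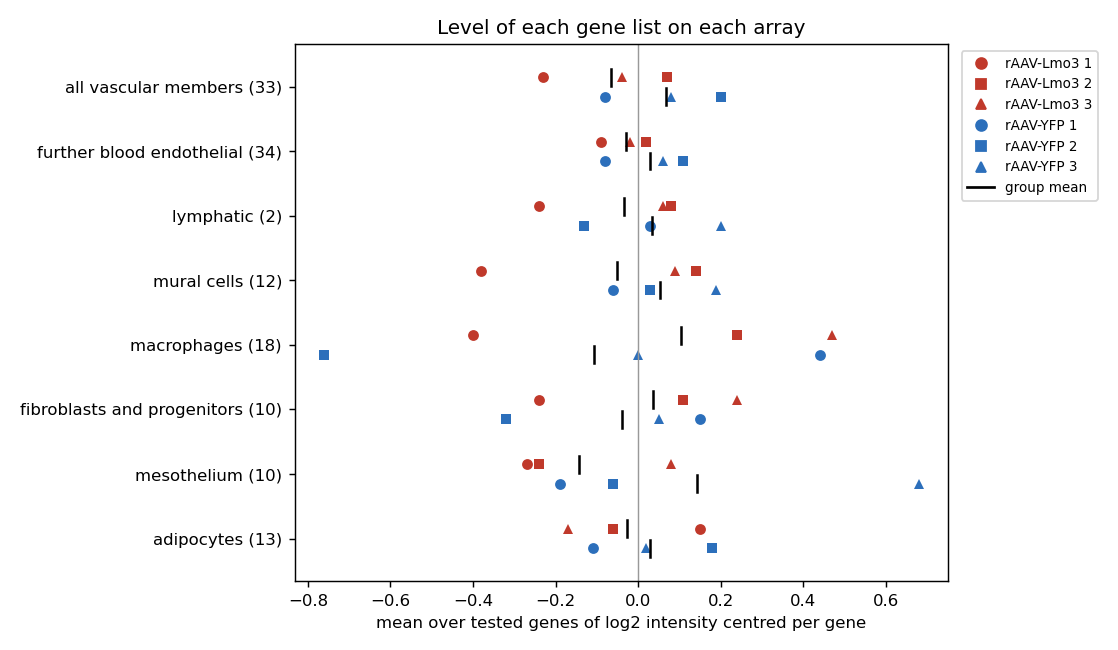
Array levels of 8 gene lists (on the horizontal axis the log2 intensity, centred per gene and averaged over tested genes; red, rAAV-Lmo3; blue, rAAV-YFP; symbols, replicate; black bar, group mean; number of genes in brackets). The vascular level is lowest on rAAV-Lmo3 1 (-0.23) and highest on rAAV-YFP 2 (0.20), and the macrophage level is lowest on the same arrays (-0.40 and -0.76).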

How the data were processed

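The assay was the Affymetrix mouse Gene ST array, on total RNA of eWAT. The deposited values are intensity values per probe set that the authors made with RMA (background correction, quantile normalization, median polish) in Affymetrix Expression Console 1.1. They are linear whole numbers, and the log2 was taken here. Of 35556 probe sets, 21789 carried exactly 1 gene symbol, and the brightest per gene was kept. The dimmest 40% of genes (mean log2 below 6.83) were left out, which left 11963 genes for limma 3.58.1 under R 4.3.3 (lmFit, eBayes, two-sided, Benjamini-Hochberg, threshold 0.05). The fit was tested on simulated arrays with independent noise, which held no arrays that stood apart. Each SE is the moderated one. The number of arrays limits the precision, and p-values measure the spread between pools. Members and gene lists were chosen with earlier results of these data known. Values on every array are given for Pecam1, Cdh5, the lymphatic members and, per role, up to 4 members with the smallest p. Of the other lists up to 3 genes with the smallest p were to be named. Given after their values were seen were Vegfa, Vegfc, Fgf2, Lyve1, Alas2, Pf4, Itga2b, Gp9, Emcn, Plvap, Cd93 and the single mesothelial genes. Alternatives were array centring, a second quantile normalization, array weights, a trend and robust prior, the methods' t-test, a replicate block, other dim limits, the mean over probe sets, and leaving out arrays. The labels give no batch.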

Additional observations from a re-analysis of the deposited data

How the results depend on the processing

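The median difference of the vascular members (-0.18) lay below 0 under all alternatives but 1, being -0.03 with array weights and 0.04 without both arrays that stood apart, where 16 of 33 lay below 0. It ranged from -0.24 to -0.07 without single arrays. The count of vascular members lower at the unadjusted level (5) was 1 with array weights (374 of all genes) and 0 by the methods' t-test (322 of all genes). It was 1 without both arrays (220 of all genes) and 1 to 10 without single arrays. The count higher (0) was 1 without both arrays (282 of all genes) and 0 to 1 without single arrays. With a replicate block 12 were lower (237 of all genes). The labels do not say whether the replicate numbers pair the arrays. Over all genes tested, the deviations of same-numbered arrays correlated at -0.55, -0.40 and 0.26. The vascular levels, in contrast, ran in the same order of replicate number in both groups. Whether the numbers mark a pairing cannot be told from these values. The lymphatic median (-0.07) was -0.12 without a filter, -0.13 with the mean over probe sets and -0.15 to 0.04 without single arrays. With the dimmest 60% left out only Pdpn remained of the lymphatic members, at 0.02. Over all genes the count lower was 458 without a filter and 140 to 339 without single arrays, and the count higher 122 to 404. Under every alternative 0 genes passed after adjustment.

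Of the 35 tested members 18 kept their sign throughout. With array weights Cldn5 was 0.11, Icam2 0.03, Emcn -0.01, Cd93 0.05, Mmrn2 0.01, Kdr 0.14, Tek 0.01 and Vwf 0.09. Without both arrays Cldn5 was 0.20, Icam2 0.08, Cd93 0.08, Mmrn2 0.06, Kdr 0.20, Tek 0.06, Sox7 0.06, Sox18 0.06, Vwf 0.15 and Pdpn -0.09, and with a second quantile normalization Hey1 was -0.01. Without single arrays the ranges were -0.18 to 0.10 for Cldn5, -0.13 to 0.07 for Icam2, -0.12 to 0.19 for Emcn, -0.39 to 0.15 for Cd93, -0.18 to 0.00 for Mmrn2, -0.18 to 0.14 for Kdr, -0.16 to 0.02 for Tek, -0.15 to 0.13 for Sox7, -0.07 to 0.07 for Vwf, -0.06 to 0.40 for Plvap, -0.18 to 0.05 for Ramp2, -0.01 to 0.19 for Calcrl, -0.01 to 0.20 for Car4, -0.07 to 0.09 for Egfl7, -0.10 to 0.09 for Hey1 and -0.20 to 0.14 for Pdpn. Apart from the arrays or genes left out, the cause was not tested.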

Other observations

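Probe sets that carry several gene symbols were used in no comparison, and 7 of them name an endothelial member. The 6 that name Notch4 together with Sympk were dim, with intensities of 31 to 42 on the rAAV-Lmo3 arrays and 38 to 55 on the rAAV-YFP arrays, and their log2 differences ran from -0.36 to -0.14. The 1 that names Ramp2 together with Malat1 read intensities of 16348, 16333 and 16449 on the rAAV-Lmo3 arrays and 16431, 16437 and 15714 on the rAAV-YFP arrays, a log2 difference of 0.02. Which of the joined genes such a probe set reads cannot be told from the annotation.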
